A study of Mus musculus with 8 samples.

Results

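The mitochondrial ribosome is the machine that translates the few mRNAs encoded by mitochondrial DNA, and all of its proteins are made from nuclear genes. Its genes were taken as every gene of the deposited table whose symbol is Mrpl or Mrps followed by a number and at most 1 further letter. The rule found 78 of 55291 genes, 49 with a large-subunit name (Mrpl) and 29 with a small-subunit name (Mrps). All 78 are annotated as protein coding and all 78 passed the filter on low counts, among 16630 genes tested. They lie on 17 chromosomes, with 11 of them on chromosome 11.

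The libraries were made from polyadenylated RNA of CD8+ T cells, enriched with a magnetic isolation kit and no fluorescence sort, from spleens of naïve mice. In the ATF4OE group, 4 libraries carry the genotype label ATF4 Tg/Tg and are titled as ATF4 overexpression, and the other 4 are labelled WT. The series' design text names the animals as ATF4Tg/Tg or E8IcreATF4Tg/Tg, so a Cre named E8Icre is part of one group, and both names there hold the transgene; WT is used here as the sample labels use it. E8I is an enhancer of the Cd8a locus, active in mature CD8 T cells. Neither the age of the mice nor their number is given in the sources used here, and the 4 libraries of a group may or may not stem from separate mice, so the p-values refer to variation among libraries and some of it could be technical.

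ATF4 is the transcription factor of the integrated stress response and drives genes of amino acid synthesis, amino acid import and tRNA charging. Mitochondrial translation makes core subunits of the respiratory chain, and T cells are known to expand their mitochondrial protein synthesis when they are activated. A mitoribosome has a large subunit, which forms peptide bonds, and a small subunit, which reads the mRNA. Some of its proteins descend from bacterial ribosomal proteins and others are found in mitochondria only. The prefix follows the subunit with few exceptions: in the solved structures Mrps30 and Mrps18a sit in the large subunit, and Mrps36 is a part of the 2-oxoglutarate dehydrogenase complex.

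Atf4 itself had 445, 427, 228 and 212 CPM (counts per 1000000, on TMM-scaled library sizes) in ATF4OE replicates 1 to 4, against 286, 308, 165 and 165 CPM in WT replicates 1 to 4. The groups overlapped, because replicates 1 and 2 of both groups were above replicates 3 and 4, and the log2 fold change was 0.51 ± 0.31 (SE) with an adjusted p of 0.37 in edgeR's quasi-likelihood test. With the replicate number as a block it was 0.48 with an adjusted p of 2.2e-04. Within replicates 1 and 2 it was 0.59, and within replicates 3 and 4 it was 0.41. Without 4 libraries that had few genes at 1 to 5 counts (ATF4OE 1, ATF4OE 2, WT 1 and WT 4) it was -0.11. That last fit set ATF4OE replicates 3 and 4 against WT replicates 2 and 3. Group and replicate pair cannot be fully told apart in it. Each library held between 93478686 and 125974143 estimated counts, and libraries of the same pair of replicate numbers, 1 and 2 or 3 and 4, deviated together across the groups. Replicates 1 and 2 are called library set 1 below, and replicates 3 and 4 library set 2, after their deposited column names; the labels do not call these sets batches. The CD8 T cell markers Cd8a, Cd8b1, Cd3e, Cd3d and Trac were present in every library and summed to 3269 to 3356 CPM in ATF4OE and 4105 to 4324 CPM in WT. Markers of other cells were higher in ATF4OE. B cell markers summed to 79.0 to 207 CPM in ATF4OE and 27.5 to 49.0 CPM in WT, and 4 of 5 were called higher. Myeloid markers summed to 81.6 to 209 CPM in ATF4OE and 10.1 to 61.1 CPM in WT (3 of 5 higher), and NK cell markers to 69.3 to 162 CPM in ATF4OE and 12.1 to 44.5 CPM in WT (2 of 4, and 0 of 4 with the replicate number as a block). Cell cycle genes summed to 185 to 489 CPM in ATF4OE and 33.1 to 71.4 CPM in WT, and 5 of 5 were higher. Among these markers Cd14 was at 0 in some library. The part of these other cells in the values below was not tested, and in bulk RNA fewer cells of a type and less RNA per cell cannot be told apart.

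Most mitoribosomal protein genes were close to the same level in ATF4OE and WT cells. At an adjusted p below 0.05 over all genes, edgeR called 0 of 78 higher and 3 lower in ATF4OE: Mrps18b, Mrps34 and Mrpl30. Of all tested genes 9.16% were called higher and 4.89% lower. Of the 8764 with a mean of at least 10 CPM 5.72% were called higher and 7.96% lower. The 3 of 78 called lower are close to the share over all tested genes, and no difference from it is read from so few calls. The 3 calls were lost without the 4 libraries with few low counts, which leaves 2 per group (adjusted p 0.17 for Mrps18b, 0.17 for Mrps34 and 0.40 for Mrpl30). That fit sets ATF4OE libraries of set 2 only against WT libraries of both sets. At an unadjusted p below 0.05, 1 member was higher and 5 were lower, beside 15.1% of all tested genes higher and 11.4% lower. DESeq2 called 1 member higher and 3 lower, beside 12.8% of genes higher and 6.57% lower, and limma-voom called 0 higher and 3 lower, beside 8.39% higher and 4.94% lower. The median log2 fold change over the 78 genes was -0.01, beside -0.02 over all tested genes and -0.06 over those with at least 10 CPM.

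The large and small subunits had like values. Of 49 Mrpl genes 22 had a positive log2 fold change and 27 a negative one, with a median of -0.005 (interquartile range -0.11 to 0.09, extremes -0.33 and 0.28). Of 29 Mrps genes 13 were positive and 16 negative, with a median of -0.03 (interquartile range -0.11 to 0.05, extremes -0.36 and 0.23). With upper-quartile scaling both medians took the other sign, 0.03 for Mrpl and 0.008 for Mrps, and with RLE size factors the Mrpl median was 0.008. Sorting the genes by the subunit they occupy in the structure gave -0.005 over 51 large-subunit genes and -0.02 over 26 small-subunit genes. The 3 genes whose symbol does not name their place had log2 fold changes of -0.04 (Mrps30), 0.01 (Mrps18a) and -0.13 (Mrps36), and none was called.

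The precision of these values was set by the spread between libraries and not by counting, since the lowest count of any member in any library was 510. The standard error of the log2 fold change ran from 0.073 to 0.23, with a median of 0.12. The 95% interval of every member lay within -1 and 1 on the log2 scale, and that of 63 members within -0.5 and 0.5. The lowest lower bound was -0.74 and the highest upper bound was 0.67. A doubling or a halving of a member's level was thus outside its interval for all 78 genes.

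**Figure D1:**
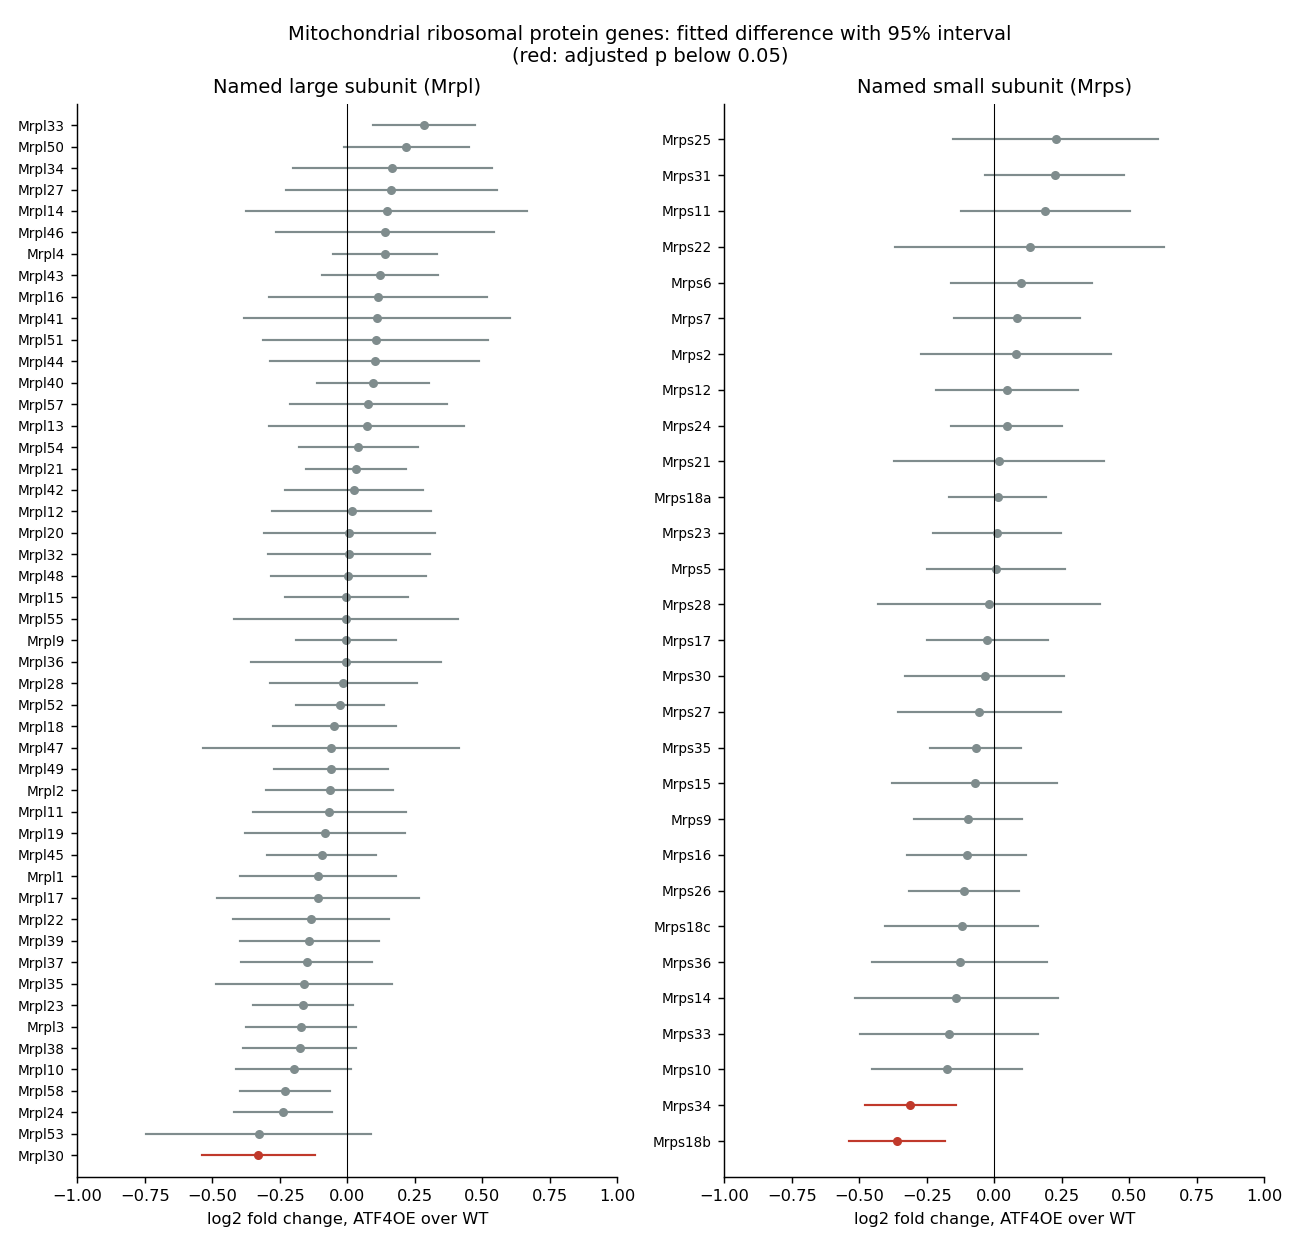
Fitted log2 fold change of ATF4OE over WT (x axis) of the 49 Mrpl genes (left) and 29 Mrps genes (right), with 95% intervals from edgeR's quasi-likelihood fit to 4 libraries per group; red marks an adjusted p below 0.05. Points lie on both sides of 0 in both panels, and the 3 red ones, Mrpl30, Mrps34 and Mrps18b, are all below 0.

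Levels per length spanned a wide range. As the mean over all 8 libraries in CPM per kilobase of annotated exon, the median member was at 11.4. Mrpl24, a protein near the exit of the peptide tunnel, was highest at 59.0 CPM per kilobase, followed by Mrps21 at 36.4 and Mrpl18 at 31.7. Mrpl17 at 2.37 and Mrps25 at 2.44 CPM per kilobase were lowest. The exon length here is that of all annotated exons joined, so genes with long alternative exons read low on this scale.

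The summed level of each subunit showed the same picture by library. Mrpl genes together had 1326, 1337, 1523 and 1521 CPM in ATF4OE replicates 1 to 4, against 1416, 1486, 1499 and 1481 CPM in WT replicates 1 to 4. Mrps genes together had 712, 742, 801 and 824 CPM in ATF4OE, against 752, 837, 784 and 813 CPM in WT. ATF4OE replicates 1 and 2 were the 2 lowest libraries in both sums, ATF4OE replicates 3 and 4 were the 2 highest in the Mrpl sum, and the groups overlapped in both. The ratio of the Mrpl sum to the Mrps sum was 1.86, 1.80, 1.90 and 1.85 in ATF4OE, against 1.88, 1.78, 1.91 and 1.82 in WT. It averaged 1.85 ± 0.042 in ATF4OE and 1.85 ± 0.062 in WT (SD, n = 4 each), so the balance of the subunits differed by less than the spread between libraries.

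The proteins of the cytosolic ribosome gave other values in the same libraries. Of 81 tested cytosolic ribosomal protein genes (symbols Rpl, Rps, Rplp and Rpsa) 0 were called higher and 76 lower in ATF4OE, with a median log2 fold change of -0.58; at an unadjusted p below 0.05, 0 were higher and 77 lower, and DESeq2 and limma-voom each called 0 higher and 76 lower. Their summed level was 70460 to 76590 CPM in ATF4OE and 106300 to 113300 CPM in WT, with no overlap. The mitoribosomal sum was 2038 to 2345 CPM in ATF4OE and 2168 to 2322 CPM in WT.

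**Figure D2:**
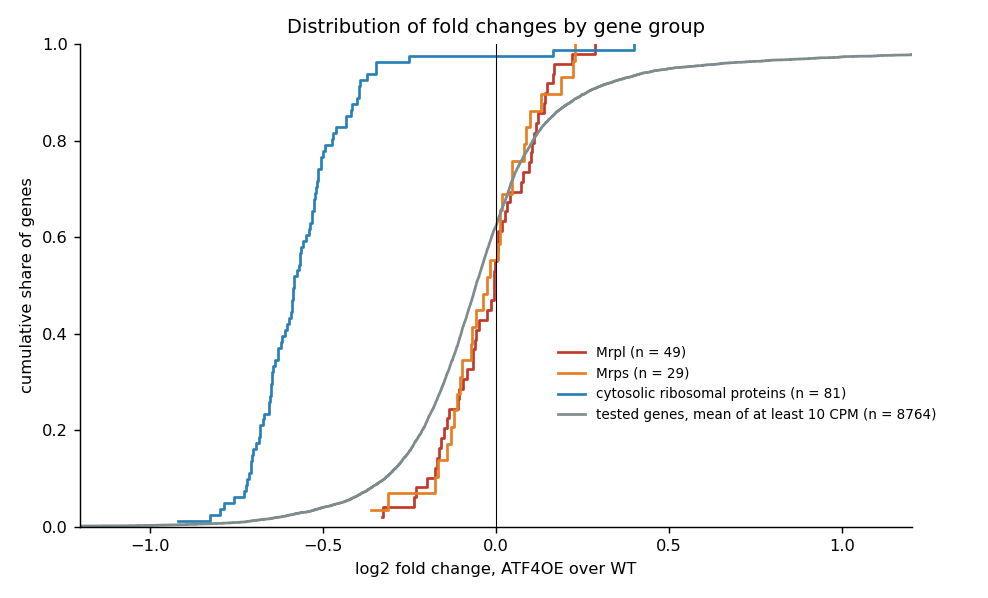
Cumulative share of genes (y axis) by log2 fold change of ATF4OE over WT (x axis) for 49 Mrpl genes, 29 Mrps genes, 81 cytosolic ribosomal protein genes and 8764 tested genes averaging 10 CPM or more. The Mrpl and Mrps curves cross 0 near their middle and run beside each other, while the cytosolic curve lies to the left with a median of -0.58.

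Mrps18b had the smallest adjusted p of all members. It is one of 3 mammalian relatives of bacterial protein S18 and sits in the small subunit at a mitochondria-specific place, while Mrps18c takes the place of S18 and Mrps18a is in the large subunit. The gene (ENSMUSG00000024436.16) spans chromosome 17 from 35910379 to 35916389 on the minus strand of GRCm38. It had 28.2, 30.3, 30.9 and 33.0 CPM in ATF4OE, against 37.7, 41.8, 37.1 and 40.9 CPM in WT. Every ATF4OE library was below every WT library. The means were 30.6 ± 1.95 CPM in ATF4OE and 39.3 ± 2.34 CPM in WT (SD, n = 4 each), and edgeR gave a log2 fold change of -0.36 ± 0.080 (SE), a ratio of 0.778, with an adjusted p of 0.013. The call held in each of the 8 fits that left out 1 library (adjusted p 0.022 to 0.043) and in every fit to all 8 libraries, and was missed within set 1 alone (adjusted p 0.064) and within set 2 alone (0.055). The related genes were not called, with log2 fold changes of 0.01 (Mrps18a) and -0.12 (Mrps18c).

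Mrps34, a mitochondria-specific small-subunit protein known to be needed for a stable small subunit, is encoded on the plus strand of chromosome 17 from 24895116 to 24897502. It had 29.0, 27.7, 29.1 and 31.2 CPM in ATF4OE, against 36.8, 38.8, 35.3 and 34.3 CPM in WT. All ATF4OE values were again below all WT values. The means were 29.2 ± 1.43 CPM in ATF4OE and 36.3 ± 1.95 CPM in WT, and edgeR gave a log2 fold change of -0.31 ± 0.075 (SE) with an adjusted p of 0.021. The call was lost without ATF4OE replicate 1 (adjusted p 0.052), ATF4OE replicate 2 (0.054), ATF4OE replicate 3 (0.055), WT replicate 1 (0.054) or WT replicate 2 (0.066). It was also missed within set 1 alone (log2 fold change -0.38, adjusted p 0.061) and within set 2 alone (-0.20, adjusted p 0.12). The gene shares sequence on its own strand with Nme3, at 9.61 CPM in ATF4OE and 10.9 CPM in WT, and lies opposite Mapk8ip3, so part of its reads may have been divided between them by a model.

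Mrpl30, the homolog of bacterial protein L30 of the large subunit, lies on the plus strand of chromosome 1 from 37890477 to 37898535. It had 40.2, 36.9, 46.5 and 41.2 CPM in ATF4OE, against 54.2, 45.8, 55.8 and 51.5 CPM in WT. ATF4OE replicate 3 was above WT replicate 2, so the groups overlapped, but within each replicate number the ATF4OE library was the lower one. The means were 41.2 ± 4.00 CPM in ATF4OE and 51.8 ± 4.41 CPM in WT, and edgeR gave a log2 fold change of -0.33 ± 0.094 (SE) with an adjusted p of 0.043. That call was lost without ATF4OE replicate 1 (adjusted p 0.093), ATF4OE replicate 2 (0.099), ATF4OE replicate 4 (0.10), WT replicate 1 (0.10), WT replicate 3 (0.095) or WT replicate 4 (0.086), with upper-quartile scaling (0.052) and without a filter on low counts (0.053). Neither library set alone gave the call, with -0.34 on the log2 scale in set 1 (adjusted p 0.11) and -0.29 in set 2 (0.060). With the replicate number as a block its adjusted p was 0.0022.

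Mrpl33, the homolog of bacterial protein L33, had the highest log2 fold change of all members. It is annotated on the plus strand of chromosome 5 from 31596935 to 31664384. It overlaps Gm43809 on its own strand (1.2 CPM in ATF4OE and 0.18 CPM in WT) and lies opposite Rbks. Part of its reads may have been divided between these genes by a model. Its levels were 54.4, 44.6, 50.8 and 46.7 CPM in ATF4OE, against 38.2, 38.5, 43.4 and 41.2 CPM in WT. All ATF4OE libraries were above all WT libraries, and edgeR gave a log2 fold change of 0.28 ± 0.085 (SE) with an adjusted p of 0.051, just above the threshold. It was called by DESeq2 (adjusted p 0.014) and in edgeR with upper-quartile factors (0.026), RLE factors (0.041), the stricter filter on low counts (0.038), the replicate block (0.015), library set as a block (0.017) and without ATF4OE replicate 2 (0.039). The second highest Mrpl gene was Mrpl50, a mitochondria-specific protein, with 24.2, 24.0, 31.1 and 28.4 CPM in ATF4OE, against 22.1, 22.6, 23.4 and 24.4 CPM in WT; the log2 fold change was 0.22 with an adjusted p of 0.21. Mrpl53, a protein of the stalk region, had a log2 fold change of -0.33 but the low level of 6.45, 5.61, 9.76 and 7.02 CPM in ATF4OE, against 9.84, 8.16, 9.67 and 8.50 CPM in WT, and was not called (adjusted p 0.32). The highest Mrps values were 0.23 for Mrps25 (adjusted p 0.47) and 0.22 for Mrps31 (adjusted p 0.26), and neither was called.

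Counting members whose groups did not overlap gave 1 with ATF4OE higher (Mrpl33) and 4 with ATF4OE lower (Mrps18b, Mrps34, Mrpl58 and Mrpl23). Of all tested genes 13.3% lay apart with ATF4OE higher and 8.66% with ATF4OE lower. Of the 8764 with a mean of at least 10 CPM, 646 lay apart with ATF4OE higher and 1109 with ATF4OE lower. No difference from these shares is read from so few members. With the replicate number as a block 1 member was called higher (Mrpl33) and 5 lower, beside 13.7% of all tested genes called higher and 13.5% lower. Of the 8764 with a mean of at least 10 CPM the block called 937 higher and 1995 lower. The 5 lower members were the 3 genes called without the block, Mrpl24 and Mrpl58. Mrpl24 and Mrpl58, like Mrpl23, are named here after their values were seen. Mrpl24 had 125, 133, 113 and 117 CPM in ATF4OE, against 147, 158, 132 and 139 CPM in WT, and within each replicate number the ATF4OE library was the lower one, although the groups overlapped; its log2 fold change was -0.24 with an adjusted p of 0.085, and 0.0024 with the block. Mrpl58, a peptidyl-tRNA hydrolase that became part of the large subunit, had 34.7, 39.9, 39.3 and 39.0 CPM in ATF4OE, against 42.4, 47.4, 44.3 and 45.2 CPM in WT. No ATF4OE library reached a WT library, and the log2 fold change was -0.23 with an adjusted p of 0.072, and 0.013 with the block. Mrpl23 had a log2 fold change of -0.16 (adjusted p 0.25), and the pseudogene Mrpl23-ps1, with which it may share reads, averaged 10.3 CPM in ATF4OE and 13.5 CPM in WT.

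**Figure D3:**
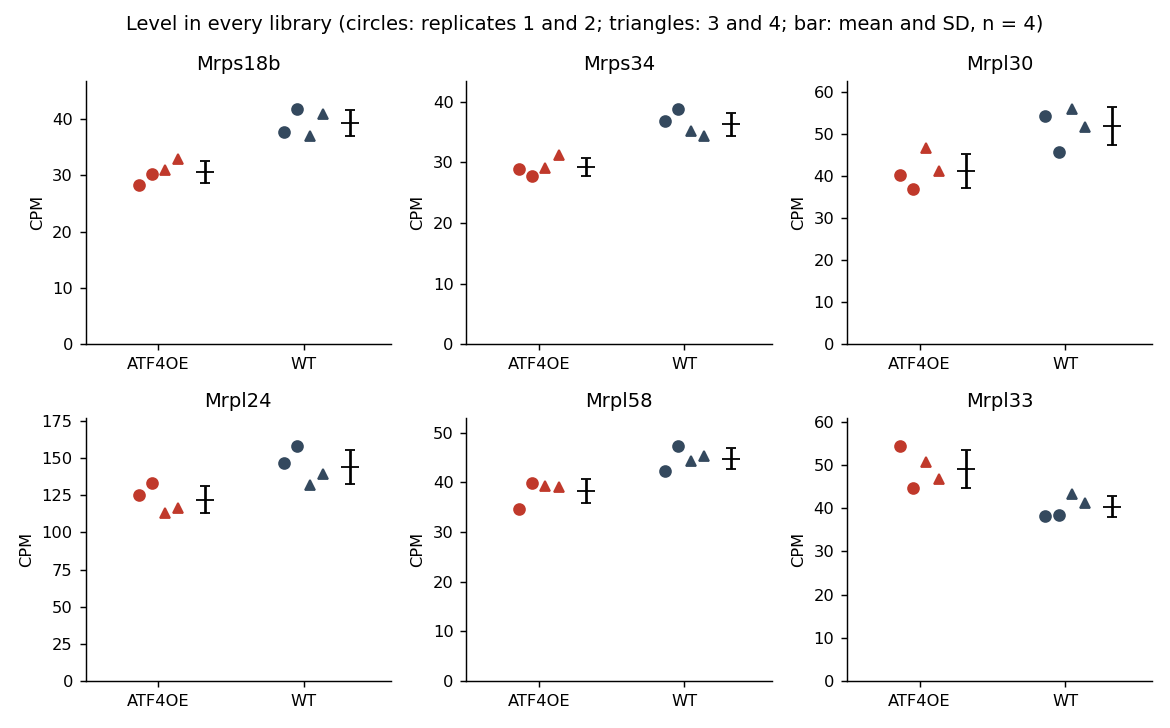
CPM (y axis, from 0) in every library for 6 genes, ATF4OE in red on the left and WT in dark blue on the right; circles are replicates 1 and 2, triangles replicates 3 and 4, and the black mark is the mean with its SD (n = 4). ATF4OE is the lower group in Mrps18b, Mrps34, Mrpl30, Mrpl24 and Mrpl58 and the higher one in Mrpl33.

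The structural classes held few or no calls. Among large-subunit proteins with a bacterial homolog 1 of 30 was called (median log2 fold change -0.01), and among mitochondria-specific ones 0 of 21 (0.01), with 1 at an unadjusted p below 0.05 and 0 by DESeq2 or limma-voom. With the replicate block these counts were 1 higher and 2 lower of 30, and 1 lower of 21, beside the 13.7% and 13.5% of all tested genes given above. Among small-subunit proteins 0 of 16 with a bacterial homolog were called (-0.006). Of these, 0 had an unadjusted p below 0.05 and 0 were called by DESeq2 or limma-voom. Of 10 mitochondria-specific ones 2 were called lower (-0.06), the genes Mrps18b and Mrps34 described above. Over all tested genes edgeR called 9.16% higher and 4.89% lower, and 15.1% and 11.4% at an unadjusted p below 0.05. DESeq2 called 12.8% higher and 6.57% lower, and limma-voom 8.39% and 4.94%. Of 8 proteins around the polypeptide exit tunnel 7 had a negative log2 fold change, with a median of -0.12. Negative values were held by 8797 of all 16630 tested genes and 5458 of the 8764 with a mean of at least 10 CPM. The median of the 8 proteins was -0.21 within set 1 and 0.05 within set 2. Of the 8, 0 were called by edgeR, DESeq2 or limma-voom, 1 had an unadjusted p below 0.05, and 1 was called lower with the replicate block. Of 5 proteins of the L7/L12 stalk 3 were negative (median -0.07), and of 7 of the central protuberance of the large subunit 4 (-0.004). In these 2 lists 0 were called by edgeR, DESeq2 or limma-voom, and 1 of the 7 was called lower with the replicate block. Mrpl12, the stalk protein that recruits translation factors and also binds the mitochondrial RNA polymerase, had 29.8, 32.1, 42.7 and 43.4 CPM in ATF4OE, against 32.6, 37.4, 39.2 and 37.1 CPM in WT. Its ATF4OE libraries held both the lowest and the highest values, and the log2 fold change was 0.02. Mrps12, a protein of the decoding centre, had a log2 fold change of 0.05.

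The promoters of the genes Mrps18b, Mrpl30 and Mrpl33, described above, and of Mrpl49, which starts 59 bases from its neighbour Fau, are shown to let their sequence be read beside these values. RefSeq promoter sequences on GRCm38.p6, 250 bases before to 50 bases after the annotated start, were matched for 69 of 78 members. The start that RefSeq annotates is not always the end of the gene span given above: the Mrps18b window lies just outside that span, and the Mrpl33 window lies within it. They are printed on the strand of the gene, 5′ to 3′, as Mrps18b chr17:35916391-35916690 (minus strand), Mrpl30 chr1:37890227-37890526 (plus), Mrpl33 chr5:31613701-31614000 (plus) and Mrpl49 chr19:6057706-6058005 (minus). Capitals mark every match, on either strand, to 1 of 4 motifs: CCGGAAG for ETS factors, GCATGCGC for NRF1, AAGATGGC for YY1 and TGATGNAA for the ATF4 and C/EBP composite element.
Mrps18b: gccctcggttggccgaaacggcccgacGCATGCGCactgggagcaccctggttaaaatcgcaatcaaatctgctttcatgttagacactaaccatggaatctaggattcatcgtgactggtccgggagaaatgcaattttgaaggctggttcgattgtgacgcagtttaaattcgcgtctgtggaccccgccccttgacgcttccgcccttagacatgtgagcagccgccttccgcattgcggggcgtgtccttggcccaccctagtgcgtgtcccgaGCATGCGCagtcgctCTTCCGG
Mrpl30: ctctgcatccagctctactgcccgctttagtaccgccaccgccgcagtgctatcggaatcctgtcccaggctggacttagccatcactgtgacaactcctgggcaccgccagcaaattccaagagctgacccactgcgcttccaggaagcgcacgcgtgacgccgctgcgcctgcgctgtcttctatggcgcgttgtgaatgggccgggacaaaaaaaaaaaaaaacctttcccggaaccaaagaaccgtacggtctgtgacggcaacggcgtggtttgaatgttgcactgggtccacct
Mrpl33: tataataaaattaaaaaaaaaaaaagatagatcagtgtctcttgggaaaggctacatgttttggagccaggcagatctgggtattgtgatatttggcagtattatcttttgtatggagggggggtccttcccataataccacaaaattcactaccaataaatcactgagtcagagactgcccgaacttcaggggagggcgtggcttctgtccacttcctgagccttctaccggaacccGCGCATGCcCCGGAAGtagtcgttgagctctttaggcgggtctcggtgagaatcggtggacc
Mrpl49: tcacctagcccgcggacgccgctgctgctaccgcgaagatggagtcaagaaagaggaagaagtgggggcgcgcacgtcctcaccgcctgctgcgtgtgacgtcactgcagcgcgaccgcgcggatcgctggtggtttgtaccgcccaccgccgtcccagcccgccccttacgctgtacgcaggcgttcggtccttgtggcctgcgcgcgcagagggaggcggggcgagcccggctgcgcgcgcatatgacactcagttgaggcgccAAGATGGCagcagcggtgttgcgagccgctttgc
The Mrps18b window holds 2 NRF1 matches and an ETS match, and the Mrpl33 window an NRF1 match and an ETS match next to the start. The Mrpl49 window holds a YY1 match just after the start, and the Mrpl30 window holds none of the 4.

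Across the 69 windows the ETS motif was found in 26 (37.7%), against 9.93% of 27025 mouse promoters of the same length and 19.5% of the 10967 that belong to tested genes. The YY1 motif was found in 12 (17.4%), against 3.19% of all promoters and 5.11% of those of tested genes. The NRF1 motif was found in 8 (11.6%), against 3.05% of all and 5.66% of those of tested genes. ETS factors, YY1 and NRF1 are the factors usually named for housekeeping and mitochondrial promoters. The composite letters were in 0 of the 69 windows, against 4.51% of all promoters and 2.80% of those of tested genes. These are matches of letters in short windows and were not tested.

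Head-to-head neighbours were common among these genes. Of 78 members 18 (23.1%) have another protein-coding gene on the opposite strand starting within 1000 bases and running away from them, against 1306 of 12778 tested protein-coding genes (10.2%). Of the 17 tested partners 2 were called higher and 3 lower in ATF4OE, beside 9.16% and 4.89% of all tested genes. Ncapd2, a condensin subunit that starts 100 bases from Mrpl51, had a log2 fold change of 0.92 (adjusted p 0.011), while that of Mrpl51 was 0.11. Ska3, a kinetochore protein that starts 49 bases from Mrpl57, had 2.96, 2.65, 5.99 and 5.71 CPM in ATF4OE, against 0.633, 0.487, 0.792 and 0.897 CPM in WT. Its libraries did not overlap, with a log2 fold change of 2.62 (adjusted p 0.0013), beside 0.08 for Mrpl57. Both partners belong to the cell cycle, whose marker genes were higher in ATF4OE as given above. A link between these values was not tested.

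Of the partners that fell, Fau encodes a cytosolic small-subunit protein fused to a ubiquitin-like protein and starts 59 bases from Mrpl49. It had 526, 526, 622 and 508 CPM in ATF4OE, against 799, 745, 873 and 683 CPM in WT. Every ATF4OE library was below every WT library, with a log2 fold change of -0.51 (adjusted p 0.0063). Mrpl49, from the other side of the same stretch, had 26.5, 30.2, 31.2 and 30.3 CPM in ATF4OE, against 29.2, 27.4, 34.4 and 32.1 CPM in WT, with overlap and a log2 fold change of -0.06. Eme2, a DNA repair endonuclease subunit that starts 29 bases from Mrps34, had a log2 fold change of -0.52 (adjusted p 8.6e-04) beside -0.31 for Mrps34. The third, the lysophospholipase gene Pnpla7, had -0.35 (adjusted p 0.017) beside 0.11 for Mrpl41. Ppp1r10, a regulatory partner of protein phosphatase 1 that starts 45 bases from Mrps18b, had a log2 fold change of 0.03, and Mitd1, which starts 66 bases from Mrpl30, -0.24 (adjusted p 0.061).

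Within each pair the log2 ratio of the member to its partner was compared between the groups. The ratio in ATF4OE less that in WT was -2.49 ± 0.26 (SE) for Mrpl57 and Ska3, -0.78 ± 0.13 for Mrpl51 and Ncapd2, -0.38 ± 0.061 for Mrps18b and Ppp1r10, 0.21 ± 0.074 for Mrps34 and Eme2 and 0.45 ± 0.11 for Mrpl49 and Fau. In these 5 of 17 pairs the groups did not overlap. Each had p = 0.029 in a two-sided exact permutation test, the smallest that 4 libraries against 4 can give, and 0.097 after adjustment over 17 pairs. With 5 such pairs the adjusted value could not have been lower. More pairs without overlap would have been needed to pass the threshold, and the differences are given as a description. For Mrpl30 and Mitd1 the difference was -0.09 ± 0.051 with overlap.

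**Figure D4:**
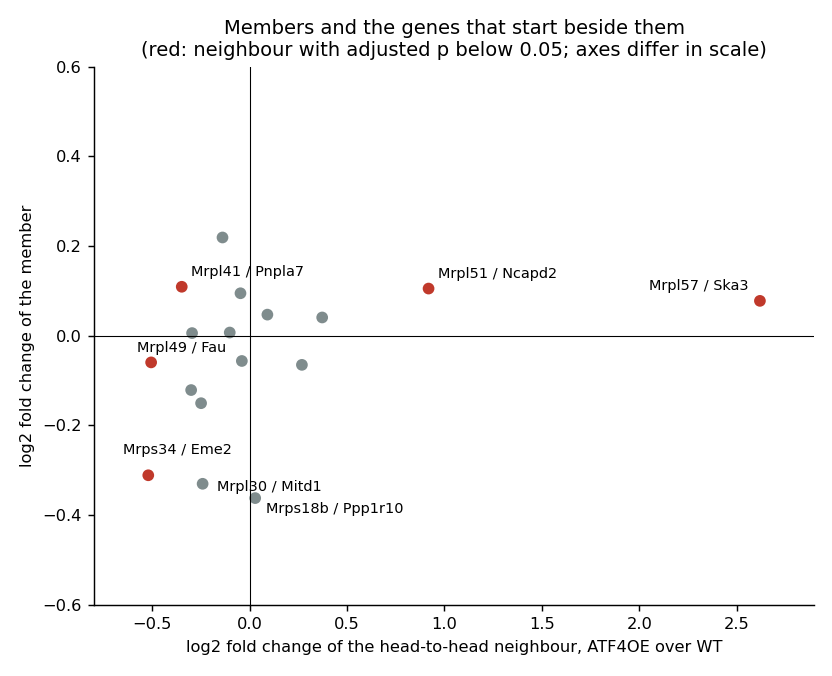
Log2 fold change (ATF4OE over WT) of 17 mitoribosomal genes (y axis) against that of the protein-coding gene that starts within 1000 bases on the other strand (x axis, wider scale); red marks partners with an adjusted p below 0.05. Partners run from -0.52 to 2.62, while the members stay between -0.36 and 0.22.

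The members' medians differed more between libraries of the ATF4OE group than between the group means. For each gene the deviation of log2 CPM from its own mean over 8 libraries was taken, and the median over Mrpl genes was -0.18, -0.12, 0.16 and 0.14 in ATF4OE replicates 1 to 4, against -0.07, 0.02, 0.08 and 0.06 in WT replicates 1 to 4. The Mrps medians were -0.13, -0.08, 0.13 and 0.06 in ATF4OE, against -0.02, 0.07, 0.02 and 0.04 in WT. ATF4OE libraries thus held the 2 lowest and the 2 highest Mrpl medians. The number of members above their own mean was 10, 21, 57 and 58 of 78 in ATF4OE, against 33, 47, 52 and 50 in WT. The cell cycle sum ran alongside in ATF4OE, with 194, 185, 462 and 489 CPM, against 38.7, 33.1, 71.4 and 70.7 CPM in WT. The myeloid marker sum also differed between the sets, with 103, 81.6, 204 and 209 CPM in ATF4OE, against 10.97, 10.1, 61.1 and 56.9 CPM in WT. B cell markers ran the other way, with 207, 148, 79.6 and 79.0 CPM in ATF4OE, against 46.7, 49.0, 27.5 and 30.6 CPM in WT. NK cell markers had 162, 135, 73.2 and 69.3 CPM in ATF4OE, against 12.3, 12.1, 44.5 and 41.2 CPM in WT. The part of these sums in the members' medians was not tested.

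**Figure D5:**
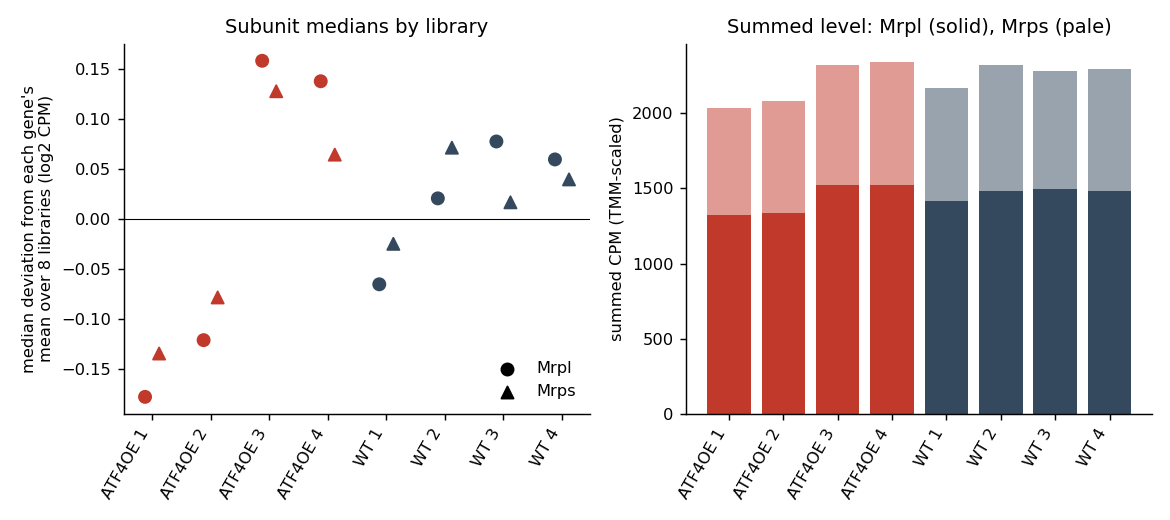
Left, median deviation of Mrpl genes (circles) and Mrps genes (triangles) from each gene's own mean, in log2 CPM, for each library; right, summed CPM of Mrpl (solid) and Mrps genes (pale), stacked from 0. ATF4OE libraries (red) are lowest in replicates 1 and 2 and highest in replicates 3 and 4 in the Mrpl medians, while WT libraries (dark blue) lie between them.

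The sign of the median difference was not the same in both library sets. Within set 1 the log2 fold change was negative for 48 members and positive for 30, with medians of -0.12 for Mrpl and -0.08 for Mrps; within set 2 it was negative for 24 and positive for 54, with medians of 0.10 for Mrpl and 0.05 for Mrps. Within set 1 edgeR called 0 members, beside 6.75% of all tested genes called higher and 3.07% lower. At an unadjusted p below 0.05 set 1 held 15 members, beside 3947 of the 16630 tested genes. Within set 2 edgeR called 2, Mrpl24 lower (log2 fold change -0.23, adjusted p 0.034) and Mrpl50 higher (0.32, adjusted p 0.045). Of all tested genes 14.3% were called higher there and 8.0% lower. At an unadjusted p below 0.05 set 2 held 13 members, beside 5702 of the 16630 tested genes. In the test of the difference between the sets, set 2 less set 1, 63 members were positive and 15 negative, with a median of 0.16 beside 0.04 over all tested genes. No member was called in that edgeR test (smallest adjusted p 0.077, 12 at an unadjusted p below 0.05), beside 0.998% of all tested genes called in either direction. The share of all genes at that unadjusted p is not given, so nothing is read from the 12. Without the filter on low counts 2 were called, beside 2.87% of genes, Mrpl19 (0.55, adjusted p 0.018) and Mrps15 (0.53, adjusted p 0.024), named after their values were seen. Mrpl19 had 26.3, 26.6, 39.3 and 36.0 CPM in ATF4OE, against 34.7, 34.3, 34.2 and 32.6 CPM in WT. Its ATF4OE libraries lay below all WT libraries in set 1 and above all of them in set 2.

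The genes that serve the mitoribosome were described from lists of known members. Mitoribosomal proteins without an Mrp symbol had log2 fold changes of 0.003 (Dap3, a small-subunit GTP-binding protein), 0.08 (Gadd45gip1), -0.07 (Aurkaip1), -0.14 (Chchd1) and -0.09 (Ptcd3). Of these 5, 0 were called, 0 had an unadjusted p below 0.05 and 0 were called by DESeq2 or limma-voom. Of 15 mitochondrial translation factors, such as the elongation factor Tufm (-0.08), 0 were called, 0 had an unadjusted p below 0.05 and 0 were called by DESeq2, limma-voom or the replicate block; the median was -0.03.

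Of 27 genes of mitoribosome assembly and rRNA maturation 0 were called higher and 2 lower, beside 4.89% of all tested genes called lower and 7.96% of those with at least 10 CPM, with a median log2 fold change of -0.15. Mrm1, a methyltransferase of the large-subunit rRNA, had 18.7, 18.1, 23.6 and 20.6 CPM in ATF4OE, against 29.6, 30.2, 32.6 and 30.7 CPM in WT. Every ATF4OE library was below every WT library, and the log2 fold change was -0.60 ± 0.10 (SE) with an adjusted p of 0.0033, called in each fit that left out 1 library. Mettl17, an assembly factor of the small subunit, had 48.5, 48.1, 47.8 and 44.2 CPM in ATF4OE, against 57.4, 59.7, 55.5 and 54.8 CPM in WT. These groups did not overlap either, with a log2 fold change of -0.27 and an adjusted p of 0.023; the call was lost without ATF4OE replicate 3 (0.068), ATF4OE replicate 4 (0.084), WT replicate 1 (0.054), WT replicate 2 (0.064) or WT replicate 3 (0.056). With the replicate block 5 of the 27 were called lower, beside 13.5% of all tested genes, and DESeq2 called 4, beside 6.57%.

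Of 17 mitochondrial tRNA synthetases 0 were called higher and 1 lower, Iars2 for isoleucine (log2 fold change -0.28, adjusted p 0.047), with a median of -0.14. The block called 5 lower and DESeq2 3. Over all tested genes edgeR called 4.89% lower, the block 13.5% and DESeq2 6.57%. Of the 8764 with a mean of at least 10 CPM edgeR called 7.96% lower, the block called 1995 genes lower and DESeq2 873. The same shares apply to the lists that follow. Of 10 genes of mitochondrial DNA transcription and maintenance 2 were called lower, the DNA polymerase Polg (-0.22, adjusted p 0.044) and the transcription factor Tfb2m (-0.32, adjusted p 0.048), with a median of -0.15. Of 13 mRNAs encoded by mitochondrial DNA, the templates of the mitoribosome, 1 was called lower, mt-Co1 for cytochrome oxidase subunit 1 (-0.37, adjusted p 0.048). All 13 log2 fold changes were negative, beside 8797 of all 16630 tested genes and 5458 of the 8764 with a mean of at least 10 CPM. The median of the 13 mRNAs was -0.28, and the block called 4 of them lower. Their summed level was 23460 to 34090 CPM in ATF4OE and 28150 to 39050 CPM in WT, with overlap. The calls of Iars2 and Tfb2m each held in 1 of the 8 fits that left out 1 library (Iars2 without ATF4OE replicate 4, Tfb2m without WT replicate 3), that of mt-Co1 in 2 (without ATF4OE replicate 2 or WT replicate 3) and that of Polg in 0. Their adjusted p in these fits ran from 0.048 to 0.11 for Iars2, 0.042 to 0.13 for Tfb2m, 0.023 to 0.13 for mt-Co1 and 0.061 to 0.13 for Polg. Upper-quartile factors ended all 4 calls (adjusted p 0.067 for Iars2, 0.085 for Tfb2m, 0.093 for mt-Co1 and 0.083 for Polg). RLE factors ended those of Tfb2m (0.061), mt-Co1 (0.068) and Polg (0.058), and so did the filter of 1 CPM in 4 libraries (0.058, 0.065 and 0.051). Without a filter those of Iars2 (0.069), Tfb2m (0.066) and Polg (0.10) were lost, and limma-voom did not call Tfb2m (0.061). Of Mrm1, Mettl17 and these 4 genes, none was called without the 4 libraries with few low counts (adjusted p 0.071 to 0.36).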

How the data were processed

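Polyadenylated RNA of 8 libraries, 4 per group, was sequenced in read pairs, per the labels' protocols. The authors deposited estimated counts of every gene in 1 table, made with Salmon 1.4.0 on GRCm38.p6 per the submitters' processing notes. The annotation is not given in the sources used here, nor is the strand setting. Salmon divides reads shared between overlapping genes or copies by a model, and 42 of 78 members are overlapped by another annotated gene. Every column was matched to a sample by its library name.

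The deposited expected counts were rounded and compared with edgeR 4.0.16 in R 4.3.3 (quasi-likelihood test, TMM, filterByExpr, robust, group as the only term), with Benjamini-Hochberg adjustment over all 16630 tested genes. Library totals were 93478686 to 125974143; since reads carry no molecular identifiers, they need not be independent molecules, and precision from counts covers counting error only. CPM is the count per TMM-scaled library size times 1000000. Standard errors come from the F statistic. Coordinates, gene types and exon lengths are from GENCODE M21 on GRCm38, counted from 1. Promoters are RefSeq sequences. The test was checked on simulated counts without library sets and with planted changes larger than those of the members. That check does not bear on small differences or on the library sets.

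Same-numbered libraries of the groups deviated together (correlations 0.22, 0.199, 0.289 and 0.229 over genes), so the fit with the replicate number as a block is given beside results whose call or count it changed by over 1.5 times. Differently numbered libraries of the same set correlated alike (0.207, 0.157, 0.232 and 0.254), and those of different sets at -0.271 to -0.164, so what the groups share follows the library set as much as the number. No label names a litter or day. Other alternatives were RLE and upper-quartile factors, no filter, a filter of 1 CPM in 4 libraries, DESeq2 1.42.0, limma-voom (limma 3.58.1), library set as a block or separately, each library left out, and, chosen after seeing the data, 4 libraries left out. Within groups no pair of libraries agreed within sampling noise.

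Named with values are called members, the 2 highest and 2 lowest log2 fold changes of each prefix, members whose symbol misnames their place with their relatives, Mrpl12 and Mrps12, mitoribosomal proteins without an Mrp symbol, up to 3 called genes of each related list, and Atf4. The members, lists and this rule were chosen with earlier results of these data known. Motifs, head-to-head pairs and Mrpl58, Mrpl23, Mrpl24, Mrpl19, Mrps15, Mrpl49 and Tufm were added with the data in view. One marker list is not reported here.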

Additional observations from a re-analysis of the deposited data

Results flagged for a closer look

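Among 56 groups of 4 libraries checked for a single library far from the others, 2 had one, where chance gives about 1 in 20. Gadd45gip1, a large-subunit protein without an Mrp symbol, had 37.0 CPM in WT replicate 4, while the other WT libraries had 29.1, 29.2 and 29.5 CPM. Mettl17 had 44.2 CPM in ATF4OE replicate 4, while the other ATF4OE libraries had 48.5, 48.1 and 47.8 CPM.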

How the results depend on the processing

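The number of members called, 3, was 6 with the replicate block or with library set as a block, and 0 within library set 1 or without the 4 libraries with few genes at 1 to 5 counts (an alternative chosen after seeing the data). For Mrpl genes the count of 1 became 2 with RLE factors, the filter of 1 CPM, DESeq2 or within set 2, 4 with either block, and 0 without the low-count filter, within set 1 or without the 4 libraries. For Mrps genes the count of 2 became 0 within either set or without the 4 libraries. Leaving out 1 library gave 1 to 2 members called (1 without ATF4OE replicate 1 or WT replicate 1), 0 to 1 for Mrpl and 1 to 2 for Mrps. Over all genes 2337 were called, 4516 with the replicate block (2279 higher and 2237 lower, against 1524 higher and 813 lower without it), 4254 with the set block, 3799 within set 2, and 1607 to 2088 with 1 library left out. The 6 calls in the related lists became 16 with the replicate block, 14 with the set block, 11 with DESeq2, 3 with RLE factors or no filter, 2 with upper-quartile factors, 1 without the 4 libraries, and 1 to 5 with 1 library left out. The interaction count of 0 became 2 without the low-count filter. The log2 fold change of Atf4, 0.51, passed the threshold with the replicate block (0.48), the set block (0.48), within set 1 (0.59) and within set 2 (0.41), was -0.11 without the 4 libraries, and ran from 0.32 to 0.67 with 1 library left out. The subunit medians moved by less than the spread between libraries (0.118) under each alternative, with -0.08 to 0.05 for Mrpl and -0.08 to 0.03 for Mrps when 1 library was left out. That spread was wider in ATF4OE than in WT (SD of the Mrpl medians 0.17 against 0.064). The Mrpl median was -0.12 within set 1 and 0.10 within set 2, so no stability across the sets is read from this. For the single genes named by the rule, Atf4 aside, and for Mrpl24 and Mrpl58, 391 alternative values kept their sign and their side of the threshold. Another 83 lost the threshold and 13 gained it. Only genes called in the main fit could lose it, and many of the 391 values belong to genes not called there. The 391 are thus no measure of how well the calls held. A further 26 crossed 0 without being called, some by little, such as Mrpl12 from 0.016 to -0.004 with limma-voom. Of all these values 0 changed sign while called. The cause of these changes was not tested. Fits within a set or without 4 libraries use fewer samples. The fit without 4 libraries also sets ATF4OE libraries of set 2 only against WT libraries of both sets. The median standard error of 0.12 on the log2 scale limits what could be detected, not the depth.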
